A study of Arabidopsis thaliana with 6 samples.

Results

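The genes described here are 69 protein-coding genes of the plastid genome of Arabidopsis thaliana, measured in plants with mutations in CAMTA3 and in wild type. They were chosen by symbol from the array's gene annotation, as probe sets that name exactly 1 gene with a plastid-type symbol, such as psb for photosystem II or rps for the small ribosomal subunit. The annotation named 13356 genes through such probe sets. By gene identifier all 69 were placed on the plastid genome, which has 78 different protein-coding symbols in the table of reference genes used (TAIR10.1 assembly). Each had a single probe set. The plastid genes ndhB, rpl2, rpl23, rps7, rps12, ycf1 and ycf2 are not members, because their probe sets name several genes. The symbols rps14, rps4, rpl16, rps3 and rps19 also occur on the mitochondrial genome in that table, and these 5 genes were assigned by identifier.

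Total RNA of 3-week-old plants was hybridised to 6 Affymetrix arrays, 2 for the mutant camta3-2, 2 for the mutant camta3-1 and 2 for the wild type. CAMTA3 is a calmodulin-binding transcription factor of the nucleus that is known to hold back defence responses driven by salicylic acid. The labels call the 2 arrays of a group biological replicates and do not give the tissue or the kind of mutation. Values are log2 expression values, so a difference of 1 is a doubling, and the array signal of different probe sets is not a measure of which transcript is more abundant.

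Plastids keep a small genome of cyanobacterial origin, which encodes core subunits of the photosynthetic complexes, the large subunit of Rubisco, ribosomal proteins and an RNA polymerase. Most of its genes are read as long polycistronic transcripts that are then cut, spliced, edited and protected at their ends by proteins imported from the cytosol. A bacterial-type polymerase, whose core is made in the plastid and whose sigma factors come from the nucleus, transcribes most photosynthesis genes, and a nucleus-encoded phage-type polymerase transcribes genes such as those of the bacterial-type polymerase itself. Plastid transcripts largely lack the stable poly(A) tails of nuclear transcripts. In green tissue they make up a large part of the messenger RNA.

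Array medians over all 22746 probe sets tested lay between 6.18 and 6.26 on the log2 scale. The log2 differences between 3' and 5' control probe sets ranged from 3.39 to 3.55 for actin, from 1.19 to 1.33 for ubiquitin and from 0.14 to 0.46 for GAPDH. Both camta3-2 arrays had the lowest values for ubiquitin but not for actin or GAPDH. The CAMTA3 transcript was not analysed here and gives no check of the labels. All 69 plastid genes had means above the dimmest 40% of probe sets, between 6.51 and 13.72, so none was left out as dim. In RNA of whole samples, fewer plastid-rich cells and less plastid RNA per cell cannot be told apart.

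The first comparison set the average of the camta3-2 and camta3-1 means against the wild-type mean, to ask how plastid transcripts differ in the mutants. Most plastid genes lay slightly lower in the mutants. The log2 difference was negative for 64 of 69 genes, 92.8%, while 62.6% of all probe sets were negative. The median was -0.23 over the plastid genes and -0.05 over all probe sets tested. Transcripts of 2 genes fell, the ribosomal protein gene rps14 and the NDH subunit gene ndhG (limma, adjusted p under 0.05 over all probe sets), and none rose. These are 2.9% of the plastid genes, while 0.255% of all probe sets were called lower, 1.15% higher and 1.41% in either direction. The differences ranged from -0.97 for rps14 to 0.09 for rps3, with a median standard error of 0.13.

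For 21 of 69 genes, 30.4%, all 4 mutant arrays lay below both wild-type arrays. Among all probe sets this held for 15.8%. No plastid gene had all 4 mutant arrays above both wild-type arrays, which held for 7.89% of all probe sets. An unadjusted p under 0.05 with a lower value in the mutants was found for 23 genes, 33.3%, against 8.08% of all probe sets. None was higher at that threshold, against 5.31% of all probe sets.

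Plastid genes shifted together from array to array, also within a group. Their median deviation from the wild-type mean was -0.15 and -0.31 on the camta3-2 arrays, -0.15 and -0.26 on the camta3-1 arrays, and -0.11 and 0.11 on the wild-type arrays. All 4 mutant arrays thus had medians below that of either wild-type array, with the replicate 1 arrays of the mutants close to wild type replicate 1. Wild type replicate 2 lay above replicate 1 for 59 of 69 plastid genes, 85.5%, where 51.5% of all probe sets did. The median gap between the wild-type arrays was 0.22, about as large as the median difference between mutants and wild type. Without wild type replicate 2, the median difference was -0.10 with 49 of 69 genes negative, and without wild type replicate 1 it was -0.32 with 67 of 69 negative. The 69 genes are therefore not independent observations of a difference between the groups.

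**Figure D1:**
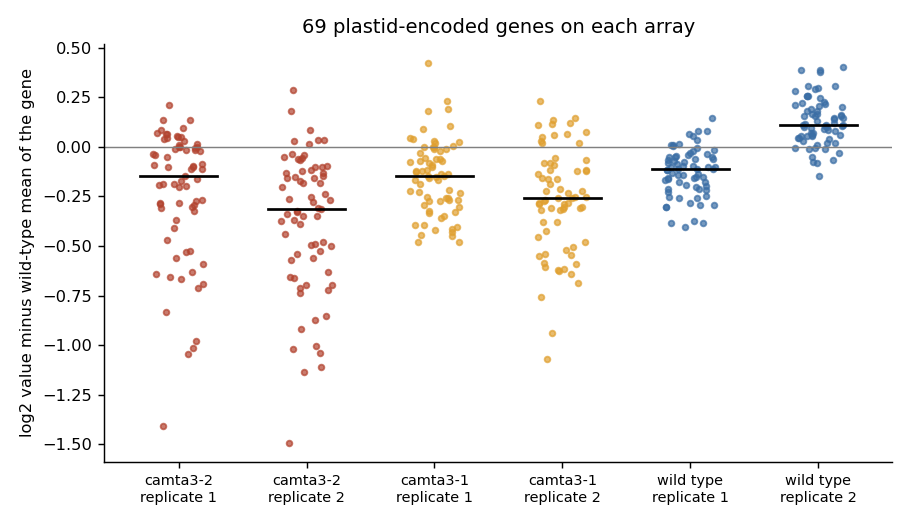
Log2 value of each of the 69 plastid-encoded genes minus that gene's wild-type mean, on each of the 6 arrays (points, genes; black lines, medians; sideways scatter has no meaning). Medians are -0.15 and -0.31 for camta3-2, -0.15 and -0.26 for camta3-1 and -0.11 and 0.11 for wild type, and the points of the wild-type arrays are symmetrical because their mean is the zero line.

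The gene rps14 encodes protein S14 of the small subunit of the plastid ribosome. It had log2 values of 7.58 and 7.50 in camta3-2, 8.51 and 8.48 in camta3-1, and 8.85 and 9.13 in wild type. The 3 groups did not overlap, and camta3-2 was the lowest. For the mean of both alleles the log2 fold change was -0.97 (standard error 0.11, limma adjusted p = 0.00942), a 1.96-fold fall. In camta3-2 alone it fell by 1.45 (standard error 0.13, adjusted p = 0.00734), and in camta3-1 the difference was -0.49 (adjusted p = 0.158). The call for the mean of both alleles was lost without wild type replicate 1 or 2, at adjusted p = 0.0727 and 0.108. In camta3-2 it was lost without camta3-2 replicate 1 or wild type replicate 1. A pseudogene of the same symbol lies on the mitochondrial genome, and whether the probes also detect it was not tested.

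The gene ndhG encodes a membrane subunit of the plastid NADH dehydrogenase-like (NDH) complex, which passes electrons from ferredoxin to plastoquinone around photosystem I. It had log2 values of 8.88 and 8.75 in camta3-2, 9.64 and 9.48 in camta3-1, and 9.79 and 9.93 in wild type. The camta3-2 arrays lay far below the other 4, and the camta3-1 arrays lay just below wild type. For the mean of both alleles its log2 fold change was -0.67 (standard error 0.10, limma adjusted p = 0.0303). In camta3-2 it fell by 1.04 (adjusted p = 0.0155), and in camta3-1 the difference was -0.30 (adjusted p = 0.382). Leaving out any array other than camta3-1 replicate 1 ended the call for the mean of both alleles, with adjusted p between 0.0506 and 0.274. In camta3-2 the call was lost without any 1 of the camta3-2 or wild-type arrays, with adjusted p between 0.0708 and 0.163.

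Outside these calls, petD came closest. It encodes subunit IV of the cytochrome b6f complex, which links the photosystems and pumps protons. Log2 values were 6.67 and 6.57 in camta3-2, 7.26 and 6.95 in camta3-1, and 7.45 and 7.97 in wild type. The groups did not overlap, and the difference was -0.85 (standard error 0.16, adjusted p = 0.062). It passed with the dim probe sets left out, at adjusted p = 0.0405, and with a trended and robust prior, at 0.0377.

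**Figure D2:**
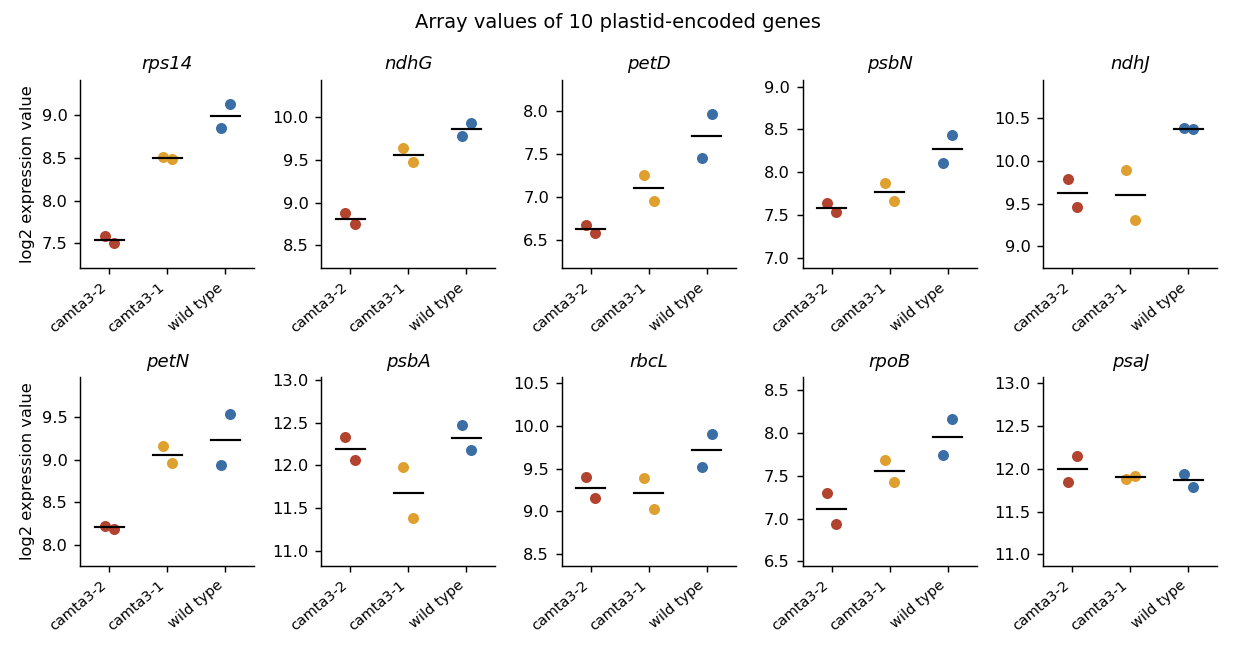
Log2 expression values of 10 plastid-encoded genes on each array, for camta3-2, camta3-1 and wild type (points, arrays; black lines, means of 2 arrays; each panel spans the same height on the log2 scale). In rps14, ndhG and petD camta3-2 is lowest and wild type highest, in psbA camta3-1 is lowest, and in psaJ the groups overlap.

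Photosystem II, the complex that splits water, was represented by 15 genes. None passed, 14 had negative differences, and their median was -0.11. The lowest was psbN, a small gene on the opposite strand within the psbB cluster, which is needed for assembly of the complex. It had 7.64 and 7.53 in camta3-2, 7.87 and 7.66 in camta3-1, and 8.10 and 8.43 in wild type, without overlap of mutants and wild type, and differed by -0.59 (limma, adjusted p = 0.0894). The inner antenna gene psbB had 11.47 and 11.33 in camta3-2, 11.35 and 11.05 in camta3-1, and 11.54 and 11.81 in wild type, again without overlap (difference -0.38, adjusted p = 0.268). The reaction centre gene psbA, whose product D1 is continually replaced in the light, had 12.33 and 12.06 in camta3-2, 11.98 and 11.39 in camta3-1, and 12.47 and 12.18 in wild type. In psbA camta3-1 lay below wild type and camta3-2 overlapped it (differences -0.64 and -0.13 for camta3-1 and camta3-2, adjusted p = 0.275 and 0.866). The small subunit gene psbM differed least, by -0.02, with all 6 arrays between 13.51 and 13.69.

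Photosystem I, which reduces ferredoxin, was represented by 5 genes, of which none passed and 4 had negative differences. The reaction centre gene psaA had 11.52 and 11.30 in camta3-2, 11.19 and 11.05 in camta3-1, and 11.54 and 11.73 in wild type. Mutants and wild type did not overlap but camta3-2 replicate 1 came close to wild type replicate 1 (difference -0.37, limma, adjusted p = 0.223). For the small subunit gene psaI only wild type replicate 2, at 11.61, stood apart, and the other 5 arrays lay between 11.01 and 11.10 (difference -0.28, adjusted p = 0.518). The gene psaC, for the subunit that carries the terminal iron-sulphur clusters, differed by -0.06. The small subunit gene psaJ was above wild type in both alleles, by 0.14 in camta3-2 and 0.03 in camta3-1, with overlapping arrays.

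All 6 cytochrome b6f genes had negative differences, with a median of -0.25, and none passed. The small subunit gene petN had 8.22 and 8.19 in camta3-2, 9.15 and 8.96 in camta3-1, and 8.94 and 9.53 in wild type. The camta3-2 arrays stood below all others, while camta3-1 overlapped wild type. Its differences were -1.03 in camta3-2 and -0.17 in camta3-1 (limma, adjusted p = 0.08 and 0.778). The small subunit gene petG was alike, with 8.28 and 8.22 in camta3-2, 8.95 and 9.03 in camta3-1, and 8.81 and 9.03 in wild type (differences -0.67 and 0.07). The gene petL, for another small subunit, had 8.66 and 9.40 in camta3-2 and 8.82 and 9.63 in wild type, and its difference of -0.17 was smaller than the gaps between those replicates.

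The 6 ATP synthase genes had negative differences with a median of -0.24, and none passed. The gene atpI, for subunit a of the proton channel, had 7.18 and 7.13 in camta3-2, 7.56 and 7.62 in camta3-1, and 7.55 and 8.16 in wild type, so only camta3-2 lay clear of wild type (difference for the mean of both alleles -0.48, limma, adjusted p = 0.265). The gene atpF, for subunit b of the stalk, had 11.47 and 11.29 in camta3-2, 11.07 and 10.90 in camta3-1, and 11.52 and 11.46 in wild type. There camta3-1 was the lower allele (difference -0.50, adjusted p = 0.136). The catalytic subunit gene atpB and its partner atpE differed by -0.06 and -0.05.

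Of the 10 NDH genes, all had negative differences and 1, ndhG, passed. Their median was -0.29, and in 6 of 10 all mutant arrays lay below wild type, against 30.4% of all plastid genes and 15.8% of all probe sets. The gene ndhJ had 9.79 and 9.46 in camta3-2, 9.90 and 9.31 in camta3-1, and 10.38 and 10.37 in wild type. The difference of -0.76 was nearly the same in both alleles (limma, adjusted p = 0.108), and it passed without camta3-1 replicate 1 (adjusted p = 0.0302). Its neighbours ndhK and ndhC differed by -0.40 and -0.05. The gene ndhF, for a large membrane subunit, had 5.90 and 6.04 in camta3-2, 7.04 and 6.85 in camta3-1, and 6.36 and 6.87 in wild type. It lay below wild type in camta3-2 (difference -0.64) and overlapped it in camta3-1 (difference 0.33), and neither difference passed (adjusted p = 0.247 and 0.537).

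The large subunit gene of Rubisco, the enzyme that fixes carbon dioxide, is rbcL. It had 9.40 and 9.15 in camta3-2, 9.39 and 9.03 in camta3-1, and 9.52 and 9.90 in wild type. The alleles were alike and below both wild-type arrays, and the difference of -0.47 was not called (standard error 0.16, limma, adjusted p = 0.258).

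The 4 subunit genes of the plastid RNA polymerase had a median difference of -0.41, and none passed. The gene rpoB had 7.30 and 6.93 in camta3-2, 7.69 and 7.43 in camta3-1, and 7.74 and 8.17 in wild type, with a difference of -0.62 (limma, adjusted p = 0.162). The gene rpoC1 averaged 11.03 ± 0.49 in camta3-2, 11.21 ± 0.30 in camta3-1 and 11.55 ± 0.08 in wild type (SD, n = 2 each), with a difference of -0.43. In both genes all mutant arrays lay below wild type, and rpoC1 had wide gaps between replicates of each allele. The gene rpoC2 differed by -0.38, and rpoA, which lies at the end of a ribosomal protein cluster, by -0.10.

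The ribosomal protein genes held both the lowest difference, that of rps14, and the highest, that of rps3. Among the 8 small subunit genes 1 passed and 6 had negative differences, with a median of -0.27, and among the 7 large subunit genes none passed, with a median of -0.03. The gene rpl20 had 8.14 and 8.31 in camta3-2, 8.87 and 8.69 in camta3-1, and 8.86 and 9.09 in wild type. Only camta3-2 lay clear of wild type (difference -0.75, limma, adjusted p = 0.0744), and camta3-1 overlapped it (difference -0.19). The gene rps15 differed by -0.39 and rpl16 by -0.23. The genes rps3, rpl36 and rps18 had differences of 0.09, 0.01 and 0.00, and rps3 was above wild type in both alleles.

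The other 7 genes had negative differences with a median of -0.28, and none passed. All mutant arrays lay below wild type in 5 of 7, against 30.4% of all plastid genes and 15.8% of all probe sets. The gene accD, for a subunit of the acetyl-CoA carboxylase that starts fatty acid synthesis, averaged 9.01 ± 0.01 in camta3-2, 9.19 ± 0.17 in camta3-1 and 9.71 ± 0.53 in wild type (SD, n = 2 each). The wild-type arrays were the farthest apart, and the difference was -0.61 (limma, adjusted p = 0.24). The protease subunit gene clpP had 12.54 and 12.28 in camta3-2, 12.62 and 12.52 in camta3-1, and 12.76 and 12.85 in wild type, with a difference of -0.32 (adjusted p = 0.268). The gene ycf3, for a photosystem I assembly factor, differed by -0.61, and its wild-type arrays averaged 9.11 ± 0.54 (SD, n = 2). The maturase gene matK, which serves intron splicing, differed by -0.12.

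**Figure D3:**
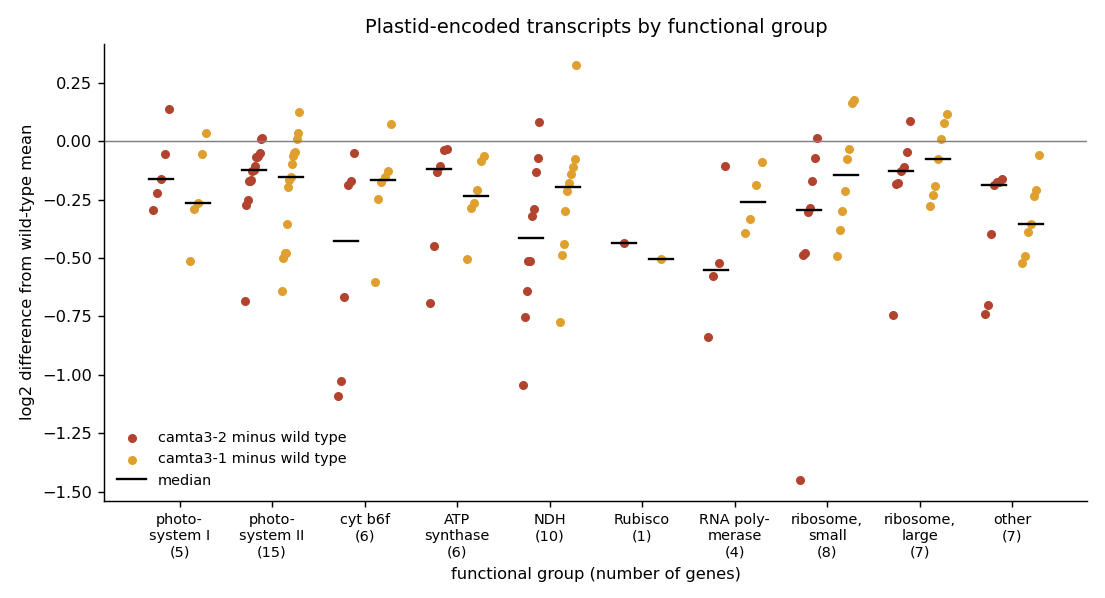
Log2 difference from the wild-type mean for each plastid-encoded gene, by functional group, for camta3-2 and camta3-1 (points, genes; black lines, medians). Only rps14 (-1.45) and ndhG (-1.04) in camta3-2 passed the test, and most other points lie between 0 and -0.5.

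Each allele was also set against wild type alone. In camta3-2, 2 of 69 genes fell, the same rps14 and ndhG, where 0.0791% of all probe sets were called lower, 0.655% higher and 0.734% in either direction (limma). At an unadjusted p under 0.05, 21 of 69 were lower and 0 higher in camta3-2, against 6.59% and 4.59% of all probe sets. In camta3-1 no plastid gene passed, where 0.277% of all probe sets were called lower, 0.805% higher and 1.08% in either direction. At an unadjusted p under 0.05, 15 of 69 were lower and 0 higher in camta3-1, against 7.18% and 5% of all probe sets. An unmoderated test called 0 in either allele. The median difference was -0.18 in camta3-2 and -0.20 in camta3-1, against -0.06 and -0.04 over all probe sets. Without wild type replicate 2 the medians were -0.10 in camta3-2 and -0.059 in camta3-1, with 51 and 45 of 69 genes negative. Without wild type replicate 1 they were -0.31 and -0.340, with 66 and 64 negative. Without camta3-2 replicate 1 the camta3-2 median was -0.31. Both camta3-2 arrays lay below both wild-type arrays for 31 of 69 genes, 44.9%, against 28.9% of all probe sets. Both camta3-1 arrays did so for 37 of 69, 53.6%, against 29.1%. The 2 comparisons share the wild-type arrays, so they are not independent. Of the 69 genes, 54 were below wild type in both alleles, 9 in camta3-2 only, 4 in camta3-1 only, and 2, psaJ and rps3, in neither. Over all probe sets 63.6% were below wild type in camta3-2 and 59% in camta3-1, and the share below in both alleles was not counted.

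Differences from wild type ranged from -1.45 to 0.14 in camta3-2 and from -0.77, for ndhJ, to 0.33 in camta3-1.

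The direct comparison of camta3-2 with camta3-1 asked whether the alleles differ. No plastid gene passed, and of all probe sets 0.0044% were called (limma). At an unadjusted p under 0.05, 8 genes were lower in camta3-2 and 3 were higher, which is 11.6% and 4.35% of the plastid genes against 3.85% and 2.49% of all probe sets. The gene ndhF had a difference of -0.97 (standard error 0.18, adjusted p = 0.658), rps14 of -0.96 (standard error 0.13, adjusted p = 0.597), ndhG of -0.74 and petG of -0.74. In the other direction, psbA was at 0.51 and atpF at 0.40. Over all 69 genes the median was -0.04, with 40 negative. It was -0.12 without camta3-2 replicate 1, 0.05 without camta3-2 replicate 2, -0.08 without camta3-1 replicate 2 and 0.00 without camta3-1 replicate 1, so it had no settled sign. Both camta3-2 arrays lay below both camta3-1 arrays for 24 genes, 34.8%, against 19.7% of all probe sets, and above them for 12, 17.4%, against 14.9%. Among the 3' to 5' controls, both camta3-2 arrays lay below both camta3-1 arrays for ubiquitin and above them for actin, and the alleles overlapped for GAPDH. The part of RNA quality in the plastid differences was not tested.

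The size of the difference went with the array signal of the probe set. In the 23 plastid genes with the lowest means, from 6.51 to 9.47, the median difference for the mean of both alleles was -0.47. In the middle 23 it was -0.25, and in the highest 23, from 11.64 to 13.72, it was -0.09. Over all probe sets in the same 3 ranges of means, the medians were -0.03, -0.03 and -0.03. Across the 69 genes, Pearson's r between mean value and difference was 0.69 and Spearman's rho 0.67 in camta3-2, and they were 0.27 and 0.35 in camta3-1. The gap between the wild-type arrays followed the mean value too, with r of -0.50. These correlations are across genes measured on the same 6 arrays and sharing the wild-type values.

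**Figure D4:**
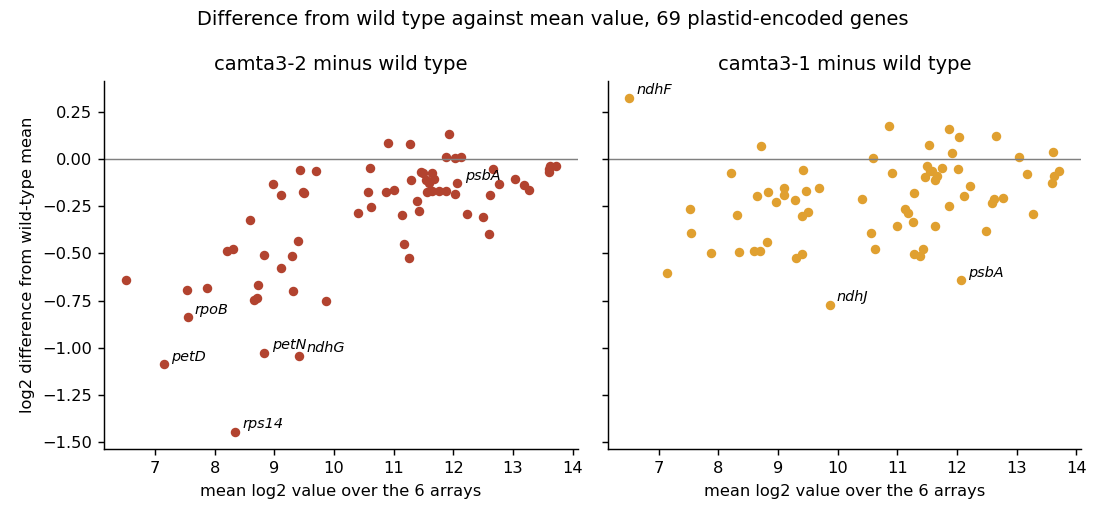
Log2 difference from the wild-type mean against the mean log2 value over the 6 arrays for the 69 plastid-encoded genes, in camta3-2 (left) and camta3-1 (right). In camta3-2 the differences widen towards low means (r = 0.69), down to -1.45 for rps14, and in camta3-1 the slope is shallower (r = 0.27).

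Along the plastid genome, genes of some transcription units differed from wild type by unequal amounts. In the unit of psaA, psaB and rps14, camta3-2 differed by -0.22, -0.16 and -1.45. In the unit of psbB, psbT, psbH, petB and petD, the differences in camta3-2 were -0.28, -0.17, 0.01, -0.05 and -1.09. In the unit that runs from rps15 to ndhD, ndhG, ndhE, ndhH, rps15 and ndhD were at -1.04, -0.51, -0.51, -0.48 and -0.29 in camta3-2. In the same unit ndhI, ndhA and psaC were at -0.13, -0.07 and -0.06. In the rpoB, rpoC1 and rpoC2 unit the differences in camta3-2 were -0.84, -0.52 and -0.58. The unit of atpB and atpE was even, at -0.03 and -0.04 in camta3-2. Gaps between genes of a unit were taken for 56 genes in 15 units listed from general knowledge, without a curated table. The median absolute gap was 0.14 for the mean of both alleles (100 pairs), against 0.21 over all 2346 pairs of plastid genes. In camta3-2 it was 0.18 against 0.25.

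**Figure D5:**
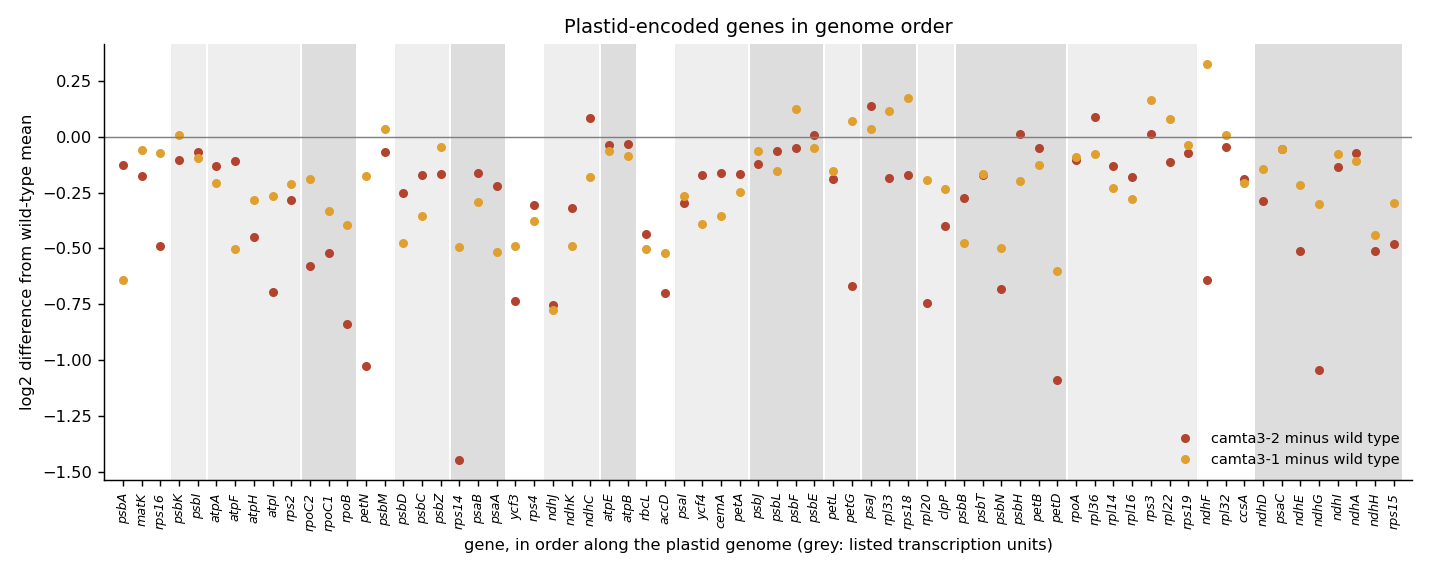
Log2 difference from the wild-type mean for the 69 plastid-encoded genes in their order along the plastid genome, for camta3-2 and camta3-1 (points, genes; shaded bands, 15 transcription units). The lowest camta3-2 points, rps14, petD, ndhG and petN, lie in different parts of the genome. Both neighbours of rps14 and petD lie between -0.17 and -0.05, while ndhG has ndhE (-0.51) and petN has rpoB (-0.84) on one side.

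Genes were also read by the polymerase that transcribes them in tobacco, as lists recalled without a curated table. The 10 genes known there for the bacterial-type polymerase, which include psbA, rbcL, psaA and psbB, had a median difference of -0.17 in camta3-2 and -0.42 in camta3-1. The 4 measured of 5 genes known for the phage-type polymerase, accD, rpoB, rpoC1 and rpoC2, had -0.64 in camta3-2 and -0.36 in camta3-1. Between the alleles, all 10 of the first list were higher in camta3-2 than in camta3-1, with a median of 0.16, and all 4 of the second were lower, with a median of -0.29. None of these single differences passed, and 53.2% of all probe sets were lower in camta3-2 than in camta3-1. The 6 measured of 7 genes with promoters for both polymerases had a median of -0.29 between the alleles, from -0.97 for ndhF to 0.08 for atpA. The lists also differ in array signal, with means from 9.40 to 13.60 in the first and from 7.54 to 11.26 in the second. Transcription units that hold genes of the first list were mixed between the alleles. Lower in camta3-2 than in camta3-1 were 1 of 3 genes in the psaA unit and 1 of 3 in the psbD unit. The psbE and psbB units had 2 of 4 and 2 of 5 lower, and the unit from rps15 to ndhD 7 of 8. In the first list psaA and psaB, psbC and psbD, and psbB and petB share units. In the second list rpoB, rpoC1 and rpoC2 share a unit. Genes that share a unit are not separate observations. All 7 nucleus-encoded photosynthesis partners given below were also higher in camta3-2 than in camta3-1.

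Few nucleus-encoded partners of the plastid genes could be read, because most have no single-gene probe set in the annotation used. A case-sensitive symbol search found 7 measured photosynthesis partners, which include the antenna gene LHCB4.1 and the photosystem I gene PSAE-1. It missed NdhL and NdhS, which are given below, because of the lower-case letters in their symbols. The 7 had a median difference of -0.04 for the mean of both alleles, and none passed (limma). In camta3-1 all 7 were below wild type, with a median of -0.13, and all 7 were higher in camta3-2 than in camta3-1, with a median of 0.12. The lowest in camta3-1 was the antenna gene LHCB4.2, at -0.35 (adjusted p = 0.342). LHCB4.1 had 13.80 and 13.84 in camta3-2, 13.81 and 13.75 in camta3-1, and 13.83 and 13.76 in wild type. Wild type replicate 2 lay below replicate 1 in all 7, opposite to the plastid genes. NdhL and NdhS, nucleus-encoded subunits of the NDH complex, differed by -0.51 and -0.36 (adjusted p = 0.103 and 0.246). NdhL had 9.68 and 9.72 in camta3-2, 9.81 and 9.49 in camta3-1, and 10.18 and 10.19 in wild type, so mutants and wild type did not overlap. Both entered by synonym a list searched by symbol for plastid transcription and RNA maturation, whose 8 measured genes had a median of -0.25 with none called. The list held CRR21, CRR22 and CRR28, editing factors of ndh transcripts, at -0.29, 0.04 and -0.23. It also held HCF101, CRR41 and CRR42, matched only by the form of their symbols, at -0.27, -0.21 and -0.13. Its median is therefore not that of RNA maturation factors alone. Sigma factor genes were not among the measured genes.

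The 11 mitochondrion-encoded genes measured had a median of -0.14 with none called, and 7 of 11 were negative. They were dimmer, with means from 3.91 to 8.41. Wild type replicate 2 lay above replicate 1 in all 11. The control probe set for cytosolic 5S ribosomal RNA, which has no poly(A) tail either, had 7.02 and 6.55 in camta3-2, 7.48 and 7.42 in camta3-1, and 7.59 and 7.88 in wild type. It had the order of groups seen in rps14 and ndhG. The control for 25S ribosomal RNA had 5.24 and 4.99 in camta3-2, 4.95 and 5.02 in camta3-1, and 5.47 and 5.19 in wild type. There camta3-1 had the lowest mean and camta3-2 overlapped wild type, so its order of groups was not that of the 5S control. The part of tail-less RNA in the labelled target, and so in the plastid differences, was not tested.

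Markers of leaf and other tissue were sparse. The 3 measured green leaf markers were all LHCB4 genes, already counted among the photosynthesis partners above. They had differences between -0.22 and 0.01, and the root marker EXPA7 was at -0.07 with array values from 4.33 to 4.63. Of 2 measured markers of leaf senescence, WRKY53, a transcription factor gene also induced in defence, rose by 1.91 (limma, adjusted p = 0.0171). The other, SAG29, was at -0.42 with a standard error of 0.74. Its arrays had 7.79 and 5.10 in camta3-2, 4.87 and 5.08 in camta3-1, and 7.06 and 5.20 in wild type, so it gave no direction. Markers of vascular tissue, flowers and pollen were not measured by single-gene probe sets.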

How the data were processed

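The deposited table holds log2 expression values per probe set, which the authors made with RMA and with Partek as named in the submitters' processing notes, without versions. RMA makes array distributions alike, so a shift shared by all transcripts is lost. The primer of the labelling reaction is not stated in the labels. Of 22810 probe sets, 64 were controls and the other 22746 were all tested, with no filter on dim ones. All 6 arrays entered a linear model with 1 mean per group in limma 3.58.1 (R 4.3.3), with empirical Bayes moderation (3 residual and 4.43 prior degrees of freedom). Benjamini-Hochberg adjustment ran over all probe sets, and the threshold was 0.05. Plots were made in matplotlib 3.10.9 under Python 3.11.15.

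Members and lists were chosen with earlier results of these data known. Named genes were those past the threshold in any comparison, the 2 with the smallest and the 1 with the largest p in each functional group, those above wild type in both alleles, and psbA, rbcL, rpoB, rpoC1, accD and clpP, and others were named after their values were seen. The gene PTL matched the list of photosynthesis partners by the words of a synonym and was left out. The list of nucleus-encoded plastid ribosomal proteins had 0 genes found. It was searched only by symbols that begin with PRPL, PRPS or PSRP or are RPS1, so such genes under other names were not looked for. The 15 transcription units were written from memory. With 200 changed probe sets simulated, 96% of changes of 1 on the log2 scale were found for the mean of both alleles, with 15 of 211 calls unchanged probe sets. For camta3-1 it was 94%, for camta3-2 and the difference between alleles 96%. The simulated noise was independent between probe sets and drawn from the moderated variances. On the real arrays the plastid genes shifted together, so these shares do not carry over to them. Alternatives were a replicate block, other normalizations, a filter, other tests and weights, subsets of groups, and each array left out.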

Additional observations from a re-analysis of the deposited data

How the results depend on the processing

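Replicate numbers were not taken as pairs, because the labels state no pairing. Some pairs of groups deviated together and others did not. Deviations of same-numbered arrays correlated at 0.402 between camta3-1 and camta3-2, 0.134 between camta3-2 and wild type and -0.037 between camta3-1 and wild type. With the replicate block, 493 probe sets were called for the mean of both alleles (320 without it), 430 for camta3-1 (246) and 280 for camta3-2 (167), and 3, 0 and 2 plastid-encoded genes, with ndhJ the added gene (adjusted p = 0.0392). The unmoderated test called 0 probe sets and 0 plastid genes in each of these and 0 between alleles, where 1 probe set was called otherwise. At a threshold of 0.01, 83, 37 and 30 probe sets were called for the mean of both alleles, camta3-1 and camta3-2, and 1 plastid gene (rps14) for the mean and for camta3-2. With mutant arrays pooled, 288 probe sets and 0 plastid genes were called. The trended and robust prior called 211 probe sets and 5 plastid genes in camta3-2. A fit of the 2 groups alone called 270 probe sets and 3 plastid genes there. Without the members whose symbol is also mitochondrial, chosen after seeing the data, 1 plastid gene (ndhG) was called for the mean and 1 for camta3-2. With each array left out in turn, calls ranged from 5 to 458 probe sets and from 0 to 3 plastid genes for the mean of both alleles, from 2 to 333 and 0 to 0 for camta3-1, from 5 to 270 and 0 to 3 for camta3-2, and from 1 to 7 and 0 to 0 between alleles. The median difference of the plastid genes then ranged from -0.32 to -0.10, from -0.340 to -0.059, from -0.31 to -0.10 and from -0.12 to 0.05 in the same order. In the comparisons with wild type, the lowest counts of probe sets came without wild type replicate 1, and the plastid medians nearest 0 without wild type replicate 2. Over settings with all arrays the median for the mean of both alleles lay between -0.24 and -0.19, and that between alleles was 0.01 with arrays centred on their medians. Among named genes no called difference turned its sign. Every member had a single probe set, so averaging probe sets of a gene was not run.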

Other observations

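Plastid genes whose probe sets name several genes, mostly both copies of genes in the inverted repeat, were not members. For the mean of both alleles ycf2 had a log2 difference of -0.87, the probe sets of rps12 had -0.66 and -0.57, and ndhB had -0.59, while rps7, ycf1, rpl2 and rpl23 were at -0.33, -0.23, -0.11 and -0.07. None of these 8 probe sets passed for the mean of both alleles (limma), the smallest adjusted p being 0.103. In camta3-2 none passed either, the smallest being 0.0728 for ycf2 and 0.0799 for ndhB. The ycf2 probe set had 6.24 and 6.25 in camta3-2, 7.29 and 6.76 in camta3-1, and 7.22 and 7.79 in wild type. The ndhB probe set had 6.37 and 6.43 in camta3-2, 7.17 and 7.17 in camta3-1, and 7.09 and 7.66 in wild type. In both, the camta3-2 arrays lay below the other 4, as they did in petN, petG and ndhF.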
